A study of Mus musculus with 25 samples.

Results

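The genes described here are 31 genes of cholesterol synthesis, its control and cholesterol transport, picked by symbol under a rule that holds no measured value, though with earlier results of these data known, among the 55487 genes counted in mouse Achilles tendon. All 31 symbols were found in the table, and all 31 were among the 19155 genes that passed the filter on low counts. By role, 8 genes act in the mevalonate arm and its branch, 11 turn squalene into sterols, 5 regulate the pathway, and 7 move, store or export cholesterol or control its uptake. The animals were 3 months old and were AMPKcKO mice (cKO), a conditional knock-out, or wild type (WT), and each genotype was kept with wheel running or with cage activity alone. Per the title of the series the subunit lost is AMPKα1, the product of Prkaa1. The promoter that drives Cre, and so the cells that lose the gene, is not given in the sources used here. The cKO running, cKO cage and WT running groups held 6 libraries each, with 3 males and 3 females, and the WT cage group held 7, with 3 males and 4 females. Nothing in the labels says whether tendons of several animals were pooled, so p-values measure the spread between these samples.

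Cholesterol is built from acetyl-CoA through mevalonate to farnesyl diphosphate, then through squalene and lanosterol to cholesterol. The same chain also supplies the isoprenoid lipids that anchor small GTPases to membranes. The SREBP transcription factors, encoded by Srebf1 and Srebf2, are held in the endoplasmic reticulum by Scap and the Insig proteins when sterols are plentiful, and are released to switch on the pathway when sterols run low. AMPK, the kinase whose α1 subunit is targeted in the cKO, is known to phosphorylate the rate-limiting reductase of this pathway and SREBP proteins. It is known to hold both in check. In tendon, cholesterol is best known for the lipid deposits that form in the Achilles tendon when blood cholesterol is high.

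Library totals ran from 13193228 to 45724243 counts, and the lowest count of any of the 31 genes in any library was 17, for Tm7sf2. All 12 tenocyte marker genes were counted in every library, with Col1a1 at a median of 6038 CPM and the tendon gene Tnmd at 44.7 CPM. Prkaa1 stood at 13.9 to 22.6 CPM in the 12 cKO libraries and at 13.4 to 31.2 CPM in the 13 WT libraries, and the ranges overlapped. Its log2 fold change for the mean of both activities was -0.36 ± 0.12 (SE), which did not pass edgeR's test adjusted over all genes (adjusted p = 0.981). Cre was counted in 11 of 12 libraries labelled cKO, all but cKO cage female replicate 3, and in none of the 13 labelled WT. The reporter eGFP was present at 10 CPM or more in 6 of 6 cKO running, 2 of 6 cKO cage, 1 of 6 WT running and 0 of 7 WT cage libraries, so its carriage moved with running and with genotype. The WT library that held it was WT running male replicate 2. On the first principal component of log2(CPM + 1), which took 26.9% of the variance, cKO running male replicate 2 lay at 67.7, WT cage female replicate 1 at 54.8 and cKO cage male replicate 2 at -46.1. On the second, which took 10.4%, WT running male replicate 3 lay at 39.0, WT running female replicate 2 at 31.8 and cKO running male replicate 2 at -31.2. An earlier analysis of these data set those 2 WT runners apart, and they were left out together in 1 alternative. Without them the running fold change of Srebf2 was 0.47 ± 0.09 (adjusted p = 0.013, edgeR) and that of Fdps 0.35 ± 0.09 (adjusted p = 0.0555). Another alternative left out cKO cage female replicate 3, which held no Cre, and WT running male replicate 2, which held eGFP but no Cre. Without them Srebf2 had 0.43 ± 0.09 (adjusted p = 0.0268, edgeR) and Fdps 0.34 ± 0.09 (adjusted p = 0.0932). With all libraries the values were 0.45 and 0.36. Whole tendons also held muscle, nerve and immune RNA, and in such samples fewer cells of a type and less RNA per cell cannot be told apart.

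The start regions of the genes are shown because several share short sequences. RefSeq promoter sequences (GRCm38.p6) were used for 25 of the 31 genes. They gave 33 windows of 300 bases that run 250 bases before to 50 after a start. A sterol regulatory element, searched on both strands as TCACNCCAC, was in 1 of 33 windows (3.03%), that of Hmgcs1, and in 1.24% of all 32851 windows. The shorter form TCACNCCA, chosen after the Srebf2 sequence was seen and overlapping the first, was in 3 of 33 windows (9.09%), those of Hmgcs1, Msmo1 and Srebf2, against 4.36% of all windows. The CCAAT letters, read as ATTGG on the other strand, were in 23 of 33 windows (69.7%) against 37.4% of all. The GC box GGGCGG was in 27 of 33 (81.8%) against 35.7%, and the E-box CACGTG in 7 of 33 (21.2%) against 7.15%. A match to these letters describes the sequence only. The 250 bases before the start of 4 genes are printed 5′ to 3′ on the gene's strand. Capitals mark the sterol element (Hmgcs1) or its shorter form (Srebf2 and Msmo1), and every CCAAT or ATTGG. The Srebf2 stretch is chr15:82147019-82147268 (plus strand), Hmgcs1 is chr13:119690101-119690350 (plus), Msmo1 is chr8:64733579-64733828 (minus) and Insig1, shown as a gene with no sterol element in this window, is chr5:28071162-28071411 (plus).
Srebf2: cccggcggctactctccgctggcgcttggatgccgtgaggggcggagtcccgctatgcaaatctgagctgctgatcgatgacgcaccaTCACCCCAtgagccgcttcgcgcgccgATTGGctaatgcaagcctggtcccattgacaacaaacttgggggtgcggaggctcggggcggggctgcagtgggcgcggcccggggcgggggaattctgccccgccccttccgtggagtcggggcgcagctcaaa
Hmgcs1: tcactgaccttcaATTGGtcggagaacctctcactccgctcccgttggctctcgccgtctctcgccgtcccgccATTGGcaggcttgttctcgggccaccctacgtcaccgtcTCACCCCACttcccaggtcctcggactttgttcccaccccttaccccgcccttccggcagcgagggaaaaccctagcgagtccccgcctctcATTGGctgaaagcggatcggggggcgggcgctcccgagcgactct
Msmo1: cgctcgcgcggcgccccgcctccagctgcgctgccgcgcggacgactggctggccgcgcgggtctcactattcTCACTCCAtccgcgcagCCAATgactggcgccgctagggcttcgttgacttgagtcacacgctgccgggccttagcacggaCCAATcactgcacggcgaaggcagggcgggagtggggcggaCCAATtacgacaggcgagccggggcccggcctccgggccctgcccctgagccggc
Insig1: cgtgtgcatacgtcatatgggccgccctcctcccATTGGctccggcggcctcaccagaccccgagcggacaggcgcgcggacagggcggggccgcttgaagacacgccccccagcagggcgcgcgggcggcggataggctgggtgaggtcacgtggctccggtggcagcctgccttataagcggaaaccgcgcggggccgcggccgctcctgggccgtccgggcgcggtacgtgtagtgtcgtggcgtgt
The shorter form TCACNCCA begins 162 bases before the start in Srebf2 (-162), at -137 in Hmgcs1 and at -177 in Msmo1. Only in Hmgcs1 is it part of the full element TCACNCCAC. Hmgcs1 has 3 copies of the CCAAT letters in the printed stretch and Msmo1 has 3, against 1 each in Srebf2 and Insig1.

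Per unit of transcript length, Srebf1, Abca1, Hmgcs1, Srebf2 and Fdps were the most abundant of the 31 genes, so that regulators, an exporter and synthesis enzymes all stood near the top. FPKM, fragments scaled by transcript length and library size, is used for this order because it allows levels of different genes to be set side by side. Srebf1, which encodes the SREBP that drives mainly fatty acid synthesis, had the highest median over the 25 libraries, 20.8 FPKM (9.08 to 62.8). Abca1, the exporter that loads cholesterol onto lipid-poor apolipoproteins, followed at 15.3 FPKM (6.61 to 46.4). Hmgcs1, the synthase that makes HMG-CoA, stood at 14.1 FPKM, Srebf2 at 13.9 FPKM and Fdps, which makes farnesyl diphosphate, at 13.7 FPKM. The least abundant were Tm7sf2, a sterol reductase, at 1.88 FPKM, Dhcr7, the reductase that ends the chain, at 1.86 FPKM, and Hsd17b7, which helps to strip methyl groups from the sterol ring, at 1.76 FPKM. Srebf1 exceeded Abca1 in 25 of 25 libraries. Every other pair of neighbours in the order changed places between libraries, the first of the pair being higher in 7 to 19 of 25.

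**Figure D1:**
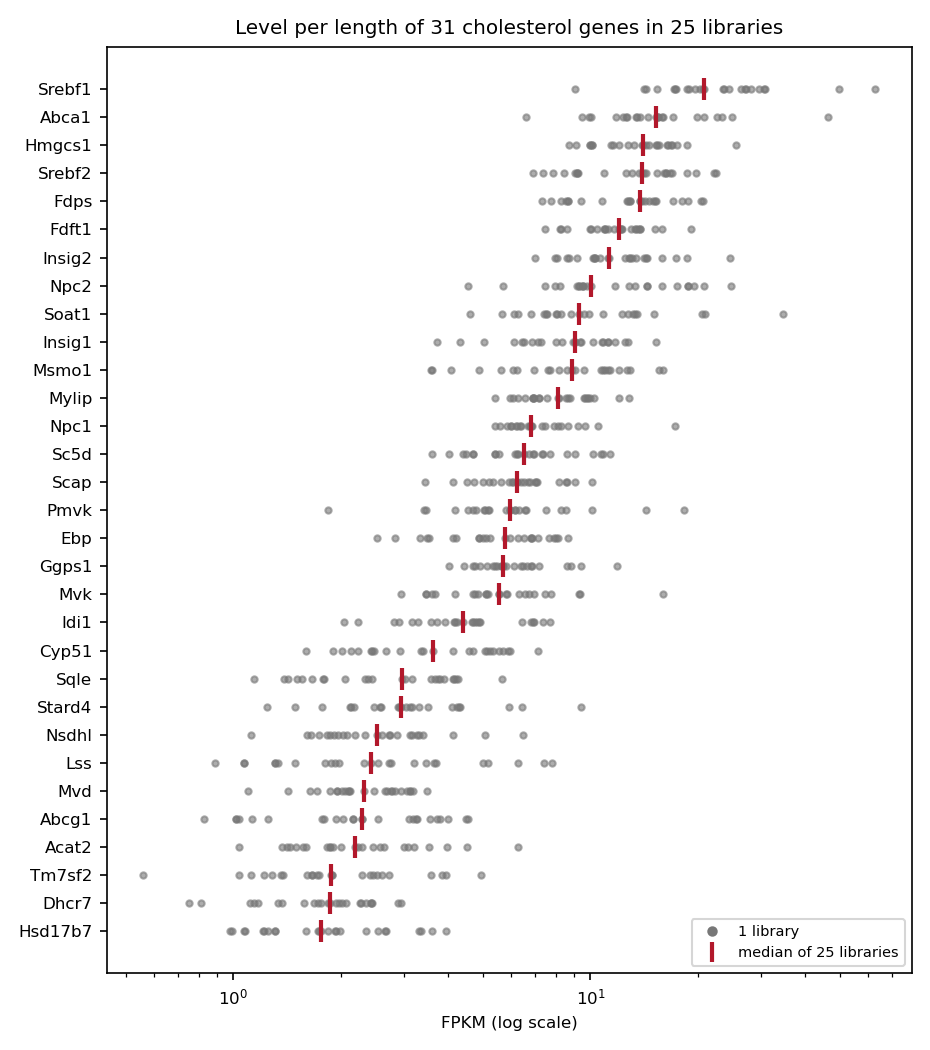
Level of each of the 31 genes in each of 25 libraries as FPKM on a log axis (grey points), with the median over libraries as a red bar, sorted by median. Medians run from 20.8 FPKM for Srebf1 to 1.76 FPKM for Hsd17b7, and the points of neighbouring genes overlap.

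Wheel running was set against cage activity as the mean of both genotypes, 12 against 13 libraries. The gene for SREBP-2 and the gene for farnesyl diphosphate synthase rose in runners, and no gene of the 31 fell. Levels below are library-scaled counts, as CPM, fold changes come from edgeR's quasi-likelihood fit with a sex term, and a gene is called at an adjusted p under 0.05 over all 19155 genes. These 2 of 31 stand beside 273 calls among all genes tested (1.43%), of which 117 were higher. At an unadjusted p under 0.05, 8 of the 31 genes were higher and none lower, beside 14.9% of all genes in either direction. The log2 fold change was positive for 24 of 31 genes, with a median of 0.16, against 52.2% of all genes and a median of 0.01. On the FPKM scale 30 of 31 were positive, and there the median of all genes itself shifted to 0.11 with 1 FPKM added and to 0.15 with 0.1 FPKM added.

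Srebf2 (ENSMUSG00000022463, chr15:82147181-82205379) encodes SREBP-2, the factor that drives most cholesterol synthesis genes, and its start region holds the short sterol element shown above. In cKO runners it stood at 48.6, 61.2 and 48.5 CPM in males and 53.8, 61.0 and 66.0 CPM in females, against 27.5, 32.2 and 28.8 CPM in cKO cage males and 45.3, 53.9 and 41.6 CPM in cKO cage females. In WT runners it stood at 34.7, 45.9 and 42.0 CPM in males and 57.0, 42.3 and 47.6 CPM in females, against 33.5, 29.6 and 39.9 CPM in WT cage males and 45.1, 34.6, 33.2 and 39.8 CPM in WT cage females. All 12 runner libraries lay above the median of the cage libraries (34.6 CPM), and 4 lay above the highest of them, so the groups overlapped. The log2 fold change was 0.45 ± 0.09 (SE, adjusted p = 0.00649, edgeR), and the call held in all 25 fits that left out 1 library (adjusted p 0.00298 to 0.0185). It was lost with eGFP carriage as a covariate (0.44 ± 0.11, adjusted p = 0.155) and with the mitochondrial rRNA share as a covariate (0.40 ± 0.10, adjusted p = 0.0692). The call held with the macrophage markers as a covariate, which gave the smallest fold change of any alternative (0.36 ± 0.08, adjusted p = 0.0377, edgeR). It also held with the muscle markers (0.39 ± 0.08, adjusted p = 0.00396) and the Schwann cell markers (0.43 ± 0.09, adjusted p = 0.0294).

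The other 4 regulators did not pass the test. Insig1, which retains SREBP and is itself a target of it, ran at 14.0, 21.9 and 31.2 CPM (lowest, median, highest) in runners and at 11.5, 17.7 and 23.9 CPM in cage animals, a log2 fold change of 0.29 ± 0.10 (adjusted p = 0.166, edgeR). Srebf1 ran at 54.5, 65.3 and 117 CPM in runners and at 35.4, 57.0 and 74.1 CPM in cage animals, a log2 fold change of 0.31 ± 0.12 (adjusted p = 0.226). For both genes 11 of 12 runner libraries lay above the cage median, and the ranges overlapped. Scap, the escort of SREBP to the Golgi, had 0.04 ± 0.09, and Insig2, the second retention protein, had -0.09 ± 0.10. On the FPKM scale Insig2 turned positive (0.35 with 1 FPKM added), at 8.05, 13.5 and 24.6 FPKM in runners and 7.01, 10.3 and 15.9 FPKM in cage animals.

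In the mevalonate arm, Fdps (ENSMUSG00000059743, chr3:89093588-89101959) rose. It makes farnesyl diphosphate, the branch point between sterols and isoprenoids. In cKO runners Fdps stood at 13.2, 11.1 and 13.8 CPM in males and 15.7, 21.5 and 17.1 CPM in females, against 8.13, 11.6 and 10.1 CPM in cKO cage males and 12.9, 13.9 and 14.1 CPM in cKO cage females. In WT runners it stood at 10.5, 14.1 and 11.1 CPM in males and 17.5, 18.5 and 15.4 CPM in females, against 9.77, 11.4 and 10.3 CPM in WT cage males and 12.0, 9.30, 14.4 and 14.0 CPM in WT cage females. Over both sexes, 9 of 12 runner libraries lay above the cage median and the ranges overlapped. All 6 female runners lay above every cage library, while the male runners, at 10.5 to 14.1 CPM, lay within the cage range. Sex was not matched there, Fdps was lower in males (below), and the share of all genes that separate so was not counted. The log2 fold change of Fdps was 0.36 ± 0.09 (adjusted p = 0.033, edgeR). The call was lost, at adjusted p 0.0506 to 0.0776, when any 1 of 10 libraries was left out. These were WT cage male replicate 1, WT running female replicate 1, WT running male replicate 2, cKO cage female replicate 1, cKO cage male replicates 1 and 3, cKO running female replicates 3 and 4, and cKO running male replicates 1 and 3. It was also lost with a covariate, while the log2 fold change was no smaller than the 0.36 above. It was 0.39 with eGFP carriage (adjusted p = 0.264), 0.37 with the mitochondrial rRNA share (0.106), 0.38 with macrophage markers (0.0588) and 0.37 with Schwann cell markers (0.0655). Gm43738, an annotated gene on the same strand that shares 26.7% of the exonic length of Fdps, had at most 0.106 CPM in any library.

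The mevalonate arm was split in sign, with 4 of 8 log2 fold changes positive, that of Fdps included, and none but that of Fdps called. The split moved with the scale, to 6 of 8 positive with limma-voom and 7 of 8 on FPKM. Acat2, the thiolase that joins acetyl-CoA units, had 0.22 ± 0.17, the mevalonate kinase Mvk had 0.22 ± 0.15, and Idi1, the isomerase of isopentenyl diphosphate, had 0.16 ± 0.14. Hmgcs1 had -0.05 ± 0.10 with 32.2, 38.2 and 49.8 CPM in runners and 31.01, 39.3 and 61.0 CPM in cage animals. Pmvk, the next kinase, had -0.02 ± 0.20, the decarboxylase Mvd had -0.23 ± 0.16, and Ggps1, which makes geranylgeranyl diphosphate, had -0.09 ± 0.08. Hmgcs1, the 1 gene with TCACNCCAC in the windows above, was not called. Of the genes that match only the shorter form, chosen after the Srebf2 sequence was seen, Srebf2 was called and Msmo1 was not.

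In the squalene and sterol arm 9 of 11 log2 fold changes were positive and none was called. Sqle, the squalene epoxidase, ran at 2.96, 8.60 and 11.1 CPM in runners and at 4.26, 5.61 and 10.2 CPM in cage animals, and 10 of 12 runner libraries lay above the cage median (0.38 ± 0.14, adjusted p = 0.195, edgeR). Lss, which closes squalene epoxide into lanosterol, ran at 6.68, 8.23 and 12.1 CPM in runners and at 5.06, 6.53 and 11.1 CPM in cage animals. All 12 runner libraries lay above the cage median of Lss (0.31 ± 0.11, adjusted p = 0.181), and without WT cage female replicate 1, which held 11.1 CPM while the other WT cage libraries held 5.86 to 6.71 CPM, Lss passed the test (0.37 ± 0.10, adjusted p = 0.0421). Dhcr7 had 0.25 ± 0.13, Hsd17b7 0.24 ± 0.12, Tm7sf2 0.23 ± 0.23, Nsdhl, another enzyme of sterol demethylation, 0.19 ± 0.15, and Ebp, the sterol isomerase, 0.17 ± 0.12. Cyp51, the lanosterol demethylase, had 0.07 ± 0.11, and the methyl sterol oxidase Msmo1 had 0.06 ± 0.15. The negative values were those of Fdft1, the squalene synthase (-0.16 ± 0.13), and Sc5d, a sterol desaturase (-0.13 ± 0.11), and both turned positive on the FPKM scale. Cyp51 turned negative with the eGFP covariate (-0.01), and Msmo1 with each of the Schwann cell, macrophage, muscle and mitochondrial rRNA covariates (-0.09 to -0.07).

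All 7 genes of transport and storage had positive log2 fold changes, and none was called. Abca1 turned to -0.01 with the muscle markers as a covariate, and Mylip to -0.01 with eGFP carriage. Soat1, which esterifies cholesterol for storage in droplets, ran at 7.82, 13.4 and 21.4 CPM in runners and at 7.45, 10.04 and 12.4 CPM in cage animals, with 7 of 12 runner libraries above the highest cage library (0.36 ± 0.13, adjusted p = 0.165, edgeR). Npc2, the soluble lysosomal protein that hands cholesterol to the membrane protein Npc1, ran at 22.7, 37.6 and 49.2 CPM in runners and at 18.9, 27.9 and 49.7 CPM in cage animals (0.29 ± 0.13, adjusted p = 0.298). Npc1 had 0.11 ± 0.07, Abca1 0.16 ± 0.14, and Abcg1, the exporter to mature lipoprotein particles, 0.11 ± 0.16. Mylip, the ubiquitin ligase that sends lipoprotein receptors to degradation, had 0.06 ± 0.08, and the cytosolic sterol carrier Stard4 had 0.05 ± 0.10.

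**Figure D2:**
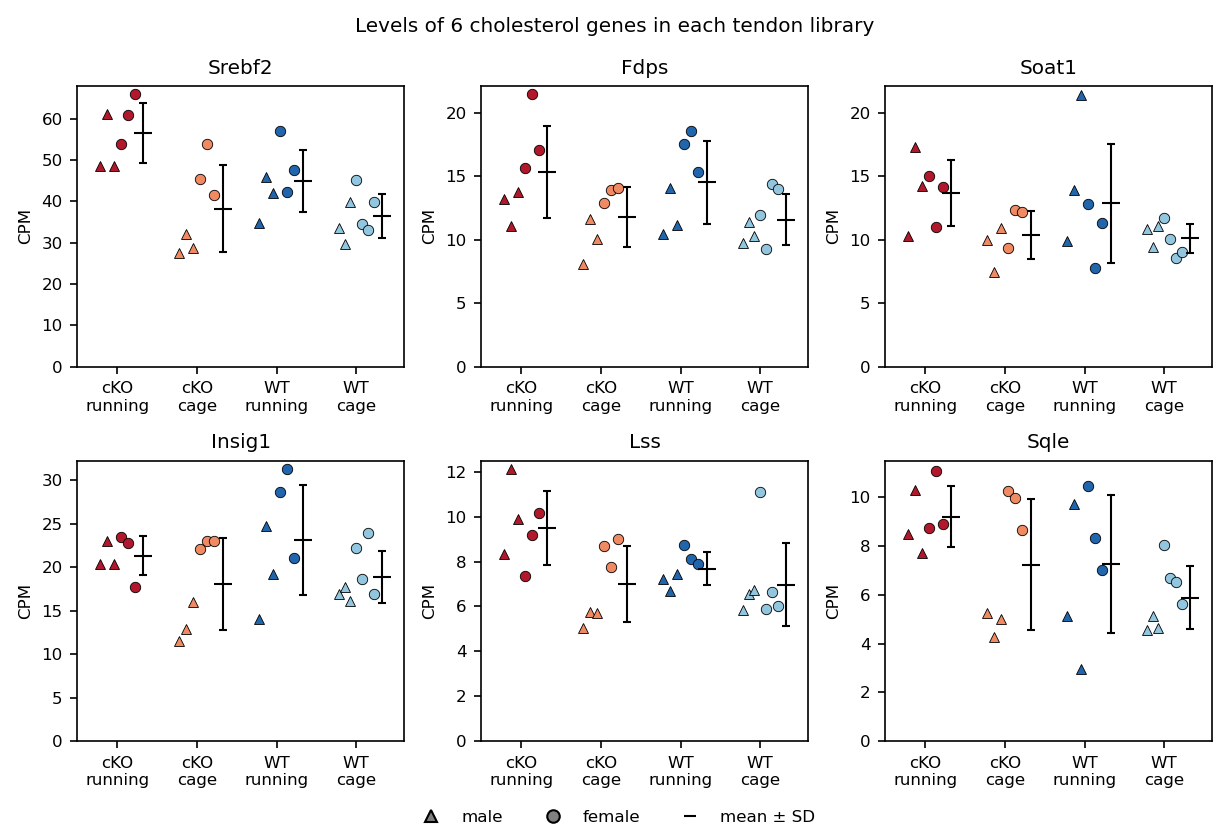
CPM of Srebf2, Fdps, Soat1, Insig1, Lss and Sqle in each library by genotype and activity, males as triangles and females as circles, with the mean ± SD of each group. Srebf2 averaged 56.5 CPM in cKO runners, 38.2 in cKO cage, 44.9 in WT runners and 36.5 in WT cage. Among cage animals of both genotypes every female point of Sqle lies above every male point, while among runners of each genotype the sexes overlap. How many of all genes separate by sex in this way was not counted.

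Other RNA moved with running as well, and its part in these results was not tested beyond the covariate fits given. All 16 Schwann cell markers had positive log2 fold changes in runners (median 1.38, 1 called), and they summed to 0.00841 to 0.231% of counts in runners and 0.00544 to 0.0652% in cage animals. The myelin markers Mag and Ncmap were at 0 in 3 libraries each. Of 20 macrophage markers, 19 were positive (median 0.44, none called), with sums of 0.0222 to 0.123% in runners and 0.0191 to 0.0951% in cage animals. Of 12 tenocyte markers 10 were negative (median -0.18) and 1 was called, higher in runners, with sums of 0.799 to 2.77% in runners and 0.504 to 2.485% in cage animals. Mitochondrial rRNA took 20.8% ± 4.61 of counts in runners and 24.4% ± 3.85 in cage animals (SD, n = 12 and 13). Libraries were grouped into projects by the prefix of their names, and no label says what that prefix stands for. The project with 23 libraries gave Srebf2 as the call and Fdps at an adjusted p of 0.0604 (edgeR). The other project holds 2 libraries, both cage, too few for a value.

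Within each genotype no gene of the 31 was called by edgeR, beside 0.131% of all genes in WT and 0.0418% in cKO. At an unadjusted p under 0.05, 5 genes were higher in WT runners than in WT cage tendons, beside 9.74% of all genes, and in cKO 5 were higher and 1 was lower, beside 13.6%. DESeq2 called none in WT and Srebf2 in cKO, and limma-voom none in WT and both Srebf2 and Fdps in cKO. In WT the smallest p-values were those of Fdps (0.34 ± 0.12, adjusted p = 0.307), Hsd17b7 (0.46 ± 0.17, adjusted p = 0.341) and Srebf2 (0.31 ± 0.12, adjusted p = 0.359). In cKO they were those of Srebf2 (0.59 ± 0.12, adjusted p = 0.0739), Fdps (0.38 ± 0.12, adjusted p = 0.218) and Lss (0.47 ± 0.16, adjusted p = 0.2315). Fdft1 was the lower one in cKO, at 17.5, 30.2 and 36.6 CPM (lowest, median, highest) in cKO runners and 32.2, 35.1 and 53.9 CPM in cKO cage animals (-0.42 ± 0.19, adjusted p = 0.33). Up to 18.3% of its exonic length overlaps Ctsb on the other strand, and Ctsb is abundant (144.9 to 296 CPM), so without a stated strand their reads cannot be told apart.

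Male tendons were set against female tendons over all groups, 12 against 13 libraries. Fdps was lower in males. All 11 genes of the squalene and sterol arm had negative log2 fold changes, although none of those 11 passed the test. Ebp turned positive under limma-voom, and Fdft1 reached 0.00735 with 1 library left out. Of the 31 genes 1 was called, beside 118 calls among all genes (0.616%). At an unadjusted p under 0.05, 10 of 31 were lower and none higher, beside 10.1% of all genes in either direction. The log2 fold change was negative for 23 of 31 with a median of -0.15, and the median over all genes was -0.00305. DESeq2 called 4 genes and limma-voom 5, all lower in males.

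The per-library values of Fdps given above show the sex difference within groups. Every male value lay under every female value among cKO runners, cKO cage animals and WT runners. Among WT cage animals, WT cage female replicate 2 (9.30 CPM) lay under all 3 males. How many of all genes separate by sex within a group was not counted. The log2 fold change of Fdps was -0.43 ± 0.09 (adjusted p = 0.0112, edgeR). Fdps was called in all 25 fits that left out 1 library and in every alternative fit that gave a sex value. Sqle ran at 2.96, 5.12 and 10.3 CPM in males and at 5.61, 8.64 and 11.1 CPM in females, and 8 of 12 males lay below the lowest female (-0.53 ± 0.14, adjusted p = 0.0985). Cyp51 ran at 7.37, 8.36 and 12.6 CPM in males and at 7.54, 11.6 and 15.4 CPM in females (-0.43 ± 0.11, adjusted p = 0.0947). Among the regulators, Insig1 (-0.37 ± 0.10, at 11.5, 17.3 and 24.8 CPM in males and 16.9, 22.8 and 31.2 CPM in females) and Srebf2 (-0.31 ± 0.09) each had an adjusted p of 0.118, with Srebf2 at 27.5, 37.3 and 61.2 CPM in males and 33.2, 45.3 and 66.0 CPM in females. DESeq2 called Fdps, Sqle, Cyp51 and Srebf2, and limma-voom added Insig1.

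Further sterol genes had unadjusted p under 0.05. Hsd17b7 had -0.41 ± 0.12 (adjusted p = 0.167, edgeR), Nsdhl -0.43 ± 0.15 (0.274) and Msmo1 -0.36 ± 0.15 (0.396). Nsdhl and Ebp lie on the X chromosome, and Ebp had -0.06 ± 0.12. In the transport group Stard4 (-0.26 ± 0.10) and Npc2 (-0.29 ± 0.13) had an unadjusted p under 0.05, while Npc1 stood at 0.13 ± 0.07, Soat1 at 0.09 ± 0.13 and Abca1 at 0.09 ± 0.14. Marker genes moved with sex too. All 16 Schwann cell markers were lower in males (median -1.31, none called), with sums of 0.00544 to 0.0591% of counts in males and 0.00909 to 0.231% in females, and 22 of 24 fast muscle markers were higher in males (median 0.38, none called), with sums of 3.36 to 18.2% in males and 3.28 to 17.5% in females. The fast list also holds genes of slow fibres, such as Ttn, its most abundant gene at a median of 69960 CPM. The sums of that list, here and below, are therefore not a measure of fast fibres alone. The slow muscle markers went the other way, with 8 of 9 lower in males (median -0.37, none called). Of 20 macrophage markers 19 were lower in males (median -0.22, none called). Of 12 tenocyte markers 8 were lower (median -0.19), 1 of them called and 5 with an unadjusted p under 0.05, with sums of 0.597 to 2.77% in males and 0.504 to 2.485% in females. All 6 mast cell markers were lower (median -0.84, none called, 4 with an unadjusted p under 0.05). Mitochondrial rRNA took 24.1% ± 4.95 of counts in males and 21.4% ± 3.87 in females (SD). With the Schwann cell, muscle or mitochondrial rRNA measure as a covariate Fdps was still called. The muscle measure averages fast and slow markers, which differed in direction between the sexes.

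**Figure D3:**
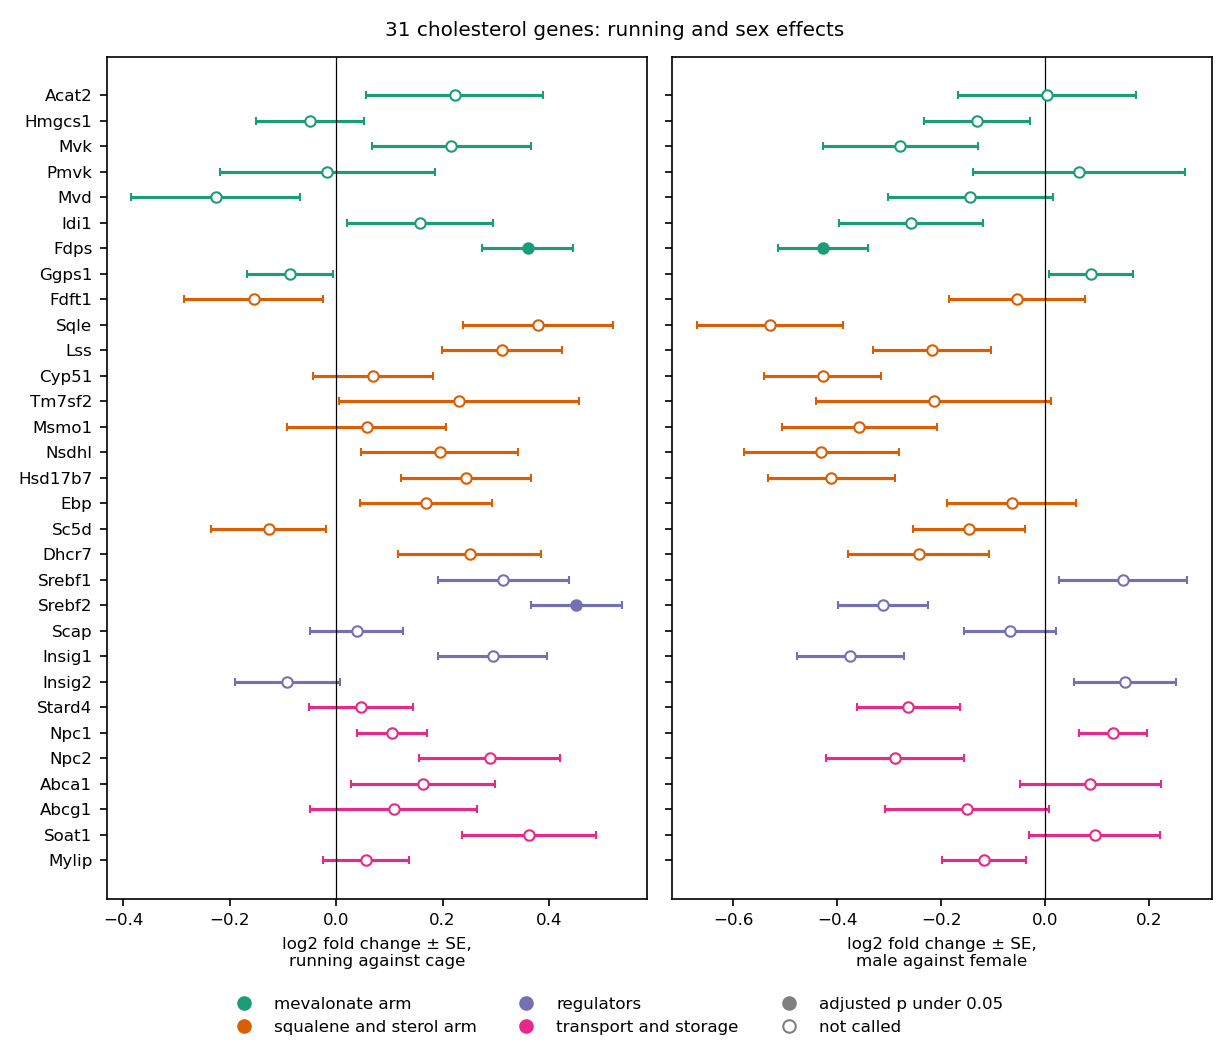
Log2 fold change ± SE of each of the 31 genes for running against cage activity (left) and males against females (right), coloured by role, with filled points for an adjusted p under 0.05. Srebf2 and Fdps are filled on the left at 0.45 and 0.36, and Fdps alone is filled on the right at -0.43. All 11 sterol arm genes lie left of 0 on the right. Ebp turned positive under limma-voom, and Fdft1 with 1 library left out.

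The cKO was set against WT to compare this pathway between the genotypes. Prkaa1 itself had negative values in cKO but was not called, as given above, so the extent of AMPKα1 loss in these tendons is not known. No gene of the 31 was called by edgeR, DESeq2 or limma-voom in runners, at cage activity or for the mean of both. The shares called among all genes were 0.0%, 0.0% and 0.00522%, each by edgeR. In runners 4 of 31 genes were higher and none lower at an unadjusted p under 0.05, beside 11.3% of all genes. At cage activity 1 was higher, beside 1.13% of all genes, and for the mean of both 2 were higher, beside 3.78%.

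In runners, Srebf2 had the smallest p. All 6 cKO runners lay above the median of the WT runners (44.1 CPM) and 3 lay above the highest of them (57.0 CPM), a log2 fold change of 0.34 ± 0.12 (adjusted p = 0.392, edgeR). Stard4 stood at 12.4, 11.4 and 10.5 CPM in cKO running males and 10.8, 12.0 and 11.03 CPM in cKO running females, against 7.49, 9.61 and 7.81 CPM in WT running males and 11.1, 11.5 and 7.95 CPM in WT running females (0.31 ± 0.14, adjusted p = 0.426). The males did not overlap and the females did. Mvk (0.46 ± 0.21, adjusted p = 0.436) and Acat2 (0.51 ± 0.24, adjusted p = 0.437) were the other genes with an unadjusted p under 0.05. Acat2 stood at 6.82, 8.52 and 5.13 CPM in cKO running males against 2.71, 4.21 and 3.67 CPM in WT running males, with no overlap, and at 4.34, 3.68 and 4.93 CPM in cKO running females against 3.46, 5.38 and 4.03 CPM in WT running females, which overlapped. Mvk overlapped in both sexes, and with the sexes combined Acat2, Stard4 and Mvk all overlapped. How many of all genes separate within 1 sex was not counted. All 8 mevalonate genes had positive values, down to 0.00 ± 0.20 for Idi1, and 7 of 8 did under RLE scaling, DESeq2 or limma-voom.

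At cage activity the smallest p was that of Mylip, at 27.2, 21.6 and 18.9 CPM in cKO males and 26.6, 23.6 and 33.04 CPM in cKO females, against 22.8, 19.7 and 18.9 CPM in WT males and 18.4, 19.2, 23.3 and 19.7 CPM in WT females (0.31 ± 0.11, adjusted p = 1.00, edgeR). In the females every cKO value lay above every WT value, and in the males they overlapped. With the sexes combined the Mylip values overlapped, and the share of all genes that separate in 1 sex was not counted. Fdft1 (0.31 ± 0.18) and Ebp (0.27 ± 0.17) followed. For the mean of both activities Sqle had 0.33 ± 0.14, Srebf2 0.20 ± 0.09 and Npc1 0.12 ± 0.07, each with an adjusted p of 0.981. In runners all 24 fast muscle markers were lower in cKO (median -0.72, none called), with sums of 3.36 to 9.96% of counts in cKO runners and 7.51 to 18.2% in WT runners. All 16 Schwann cell markers were higher (median 1.47, none called), with sums of 0.0139 to 0.231% in cKO runners and 0.00841 to 0.0494% in WT runners. Their part in the cKO values was not tested beyond the covariate fits, in which no gene of the 31 was called.

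**Figure D4:**
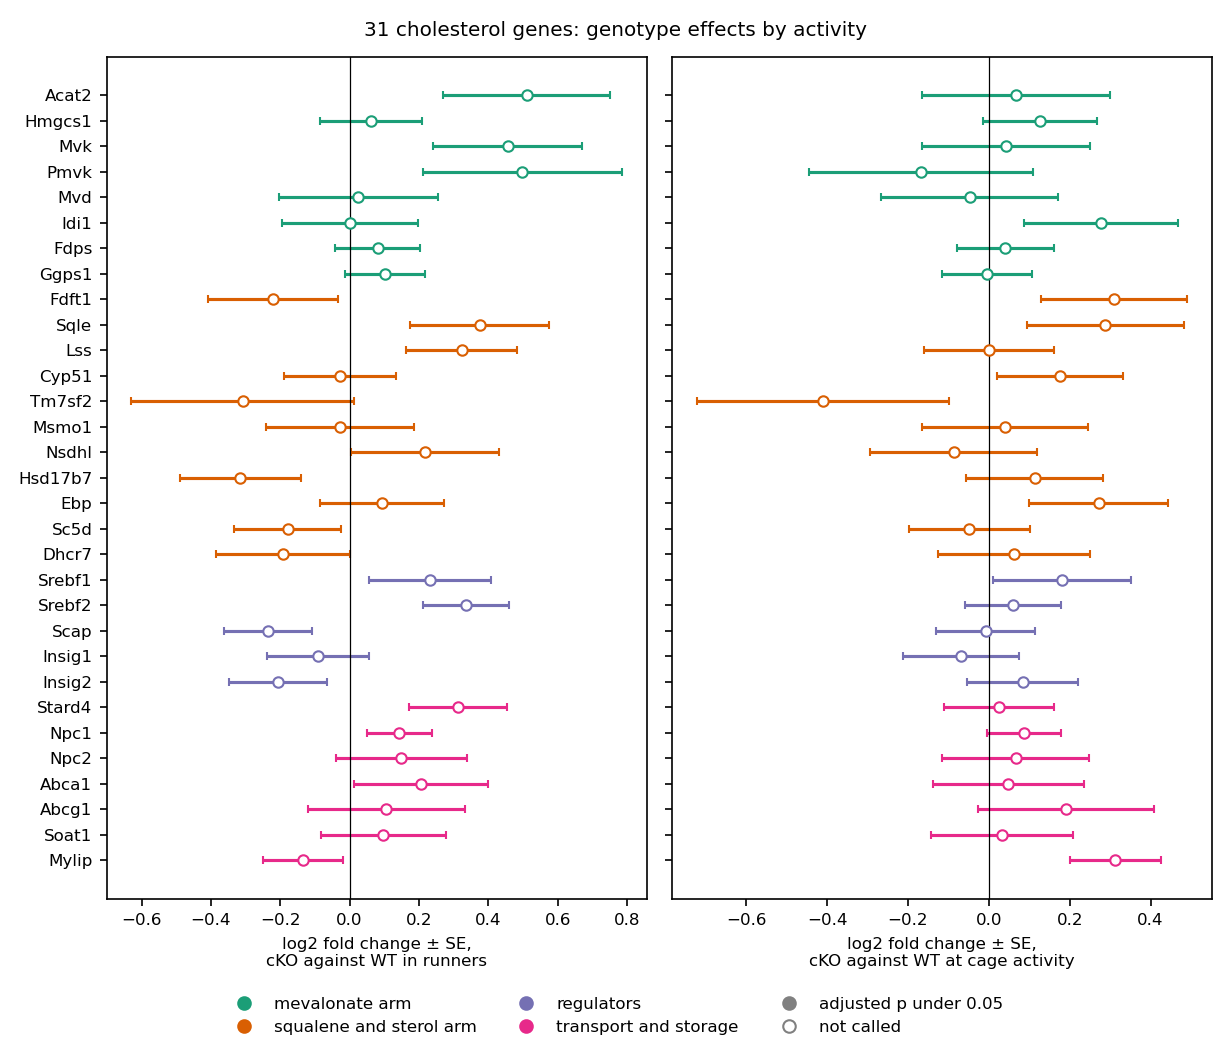
Log2 fold change ± SE of each of the 31 genes for cKO against WT in runners (left) and at cage activity (right), coloured by role. No point is filled, and the values run from -0.32 to 0.51 in runners and from -0.41 to 0.31 at cage activity.

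The running effect in cKO minus that in WT, which tests whether the genotypes differ in their response, gave no call for the 31 genes by edgeR, DESeq2 or limma-voom, beside 0.0% of all genes by edgeR. At an unadjusted p under 0.05, 1 of 31 genes was lower, beside 7.19% of all genes. That gene was Mylip. It ran at 18.6, 21.8 and 27.0 CPM (lowest, median, highest) in cKO runners and 18.9, 25.1 and 33.04 CPM in cKO cage animals, and at 21.7, 25.3 and 26.5 CPM in WT runners and 18.4, 19.7 and 23.3 CPM in WT cage animals, an interaction of -0.45 ± 0.16 on the log2 scale (adjusted p = 0.672, edgeR). Fdft1 had -0.53 ± 0.26 and Hsd17b7 -0.43 ± 0.24, both with an adjusted p of 0.672. For Srebf2 the difference was 0.28 ± 0.17 (95% interval -0.06 to 0.61), and for Fdps 0.04 ± 0.17 (-0.30 to 0.38), so a larger response in either genotype was not detectable at this number of libraries.

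The genes that use or surround these products were read from lists of further pathway genes. Among 14 genes that use isoprenoids, 5 had positive and 9 negative log2 fold changes in runners, and 1 was called. Pggt1b, the catalytic subunit of the enzyme that attaches geranylgeranyl groups to proteins, fell in runners at 21.6, 25.6 and 29.6 CPM, against 26.3, 34.7 and 38.0 CPM in cage animals (-0.38 ± 0.07, adjusted p = 0.00357, edgeR). Fntb, the catalytic subunit of protein farnesyltransferase, ran at 4.99, 6.52 and 8.86 CPM in runners and 3.65, 4.82 and 6.81 CPM in cage animals (0.44 ± 0.12, adjusted p = 0.057). Of 12 genes of lipoprotein uptake and lysosomal release, 8 were positive and 1 was called. Cd36, a scavenger receptor for fatty acids and oxidised lipoproteins that is also abundant in muscle and capillaries, fell at 222 to 407 CPM in runners, against 302 to 577 CPM in cage animals (-0.46 ± 0.11, adjusted p = 0.0404). Of the 24 fast muscle markers 20 had negative values in the same comparison (median -0.17, none called), and their part in the Cd36 value was not tested.

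No gene of the other lists was called in the running comparison, and none of any of these lists in the other comparisons. Of the 4 further synthesis genes that were tested, 3 were positive in runners, and all 4 were lower in males (median -0.21). Of 11 genes that process SREBP or act on its escort, 5 were positive in runners (median -0.000101), and Paqr3, a Golgi protein that tethers the escort, had the smallest p there (0.40 ± 0.16, adjusted p = 0.227, edgeR). Of 12 sterol transfer genes 6 were positive (median 0.04), of 12 genes of the liver X receptors and efflux 7 (median 0.04), and of 7 oxysterol genes tested 6 (median 0.29), against 0.01 for all genes.

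Library-to-library variation was compared for 8 pairs of genes chosen by role, over 25 libraries and after subtracting the mean of each of the 8 groups of genotype, activity and sex from log2 CPM. Hmgcs1 and Idi1 varied together, with Pearson's r = 0.693 (permutation within groups, p = 0.00293, adjusted over 8 pairs 0.0234) and Spearman's rho = 0.659 (permutation p = 0.0103, adjusted 0.054). Without the 2 libraries farthest from the median of Hmgcs1 r was 0.756, and within the project of 23 libraries it was 0.66. Srebf1 and Abca1 had r = 0.645 (permutation p = 0.0173, adjusted 0.0694) and rho = 0.609 (adjusted 0.054). Srebf2, the factor known to drive Hmgcs1, gave no correlation that passed the test, with r = -0.107 (permutation p = 0.696) and rho = -0.245 (0.357), and Srebf2 with Fdps had r = 0.114 (permutation p = 0.641). The remaining 4 pairs had r between 0.146 and 0.421, with adjusted permutation p of 0.2 to 0.696. All 8 pairs passed on log2(FPKM + 0.1), with adjusted permutation p of 0.00052 to 0.0494.

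**Figure D5:**
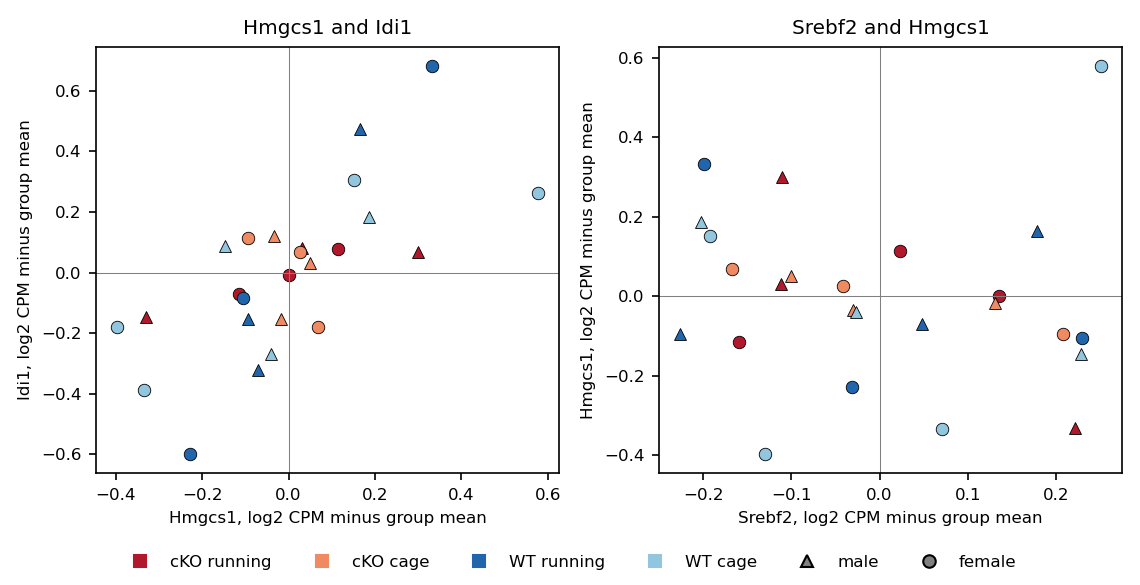
Log2 CPM minus the mean of the library's group for Idi1 against Hmgcs1 (left) and Hmgcs1 against Srebf2 (right) in 25 libraries, coloured by genotype and activity, males as triangles and females as circles. The points rise from lower left to upper right on the left (r = 0.693) and show no such slope on the right (r = -0.107).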

How the data were processed

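Total RNA of whole Achilles tendons was sequenced in 25 libraries. The authors deposited expected counts per gene, which hold whole numbers here, and FPKM values. Per the submitters' processing notes the tools were RSEM 1.3.3, STAR 2.7.8a, FastQC 0.11.8 and cutadapt 2.3, and the build was GRCm38 (mm10). The strand setting and annotation release are not given in the sources used here. Expected counts were tested as deposited with edgeR 4.0.16 in R 4.3.3 (filterByExpr, TMM, quasi-likelihood F-test, 4 groups of genotype and activity plus sex), with Benjamini-Hochberg adjustment over 19155 genes. FPKM was used for levels between genes and, as log2 with 1 or 0.1 added, in limma 3.58.1 as an alternative. DESeq2 1.42.0 and limma-voom were further alternatives, with other filters, scalings, covariates and each library left out. The code was tested on simulated data.

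The 31 genes are defined by symbol, not by a measured value, but they, the other lists and the tests were chosen with earlier results of these data known. In each comparison the called genes and the 3 with the smallest p were named with values. Correlations used 100000 permutations within the 8 groups. Depth was 13193228 to 45724243 counts per library, and the number of libraries limits the precision. The most similar pair of libraries had r = 0.978, so none was counted as a repeat. Same-numbered libraries of 1 sex had correlations of deviations of -0.2 to 0.207 (34 pairs), against -0.222 to 0.242 for other numbers (83 pairs). This showed no pairing by number, but it cannot exclude pairing that leaves little trace over all genes. 0 columns of other samples were present. Promoter sequences and start sites came from RefSeq, gene spans from the GENCODE M21 annotation, both on GRCm38. No promoter sequence was used for Fdps, Fdft1, Sqle, Stard4, Npc1 or Abcg1.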

Additional observations from a re-analysis of the deposited data

Results flagged for a closer look

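In 8 of 124 sets of values (31 genes in 4 groups) 1 library lay far from the rest of its group, and chance flags about 1 in 20 groups. WT cage female replicate 1 accounts for 4 of them, all high. There Lss stood at 11.1 CPM (other WT cage libraries 5.86 to 6.71), Nsdhl at 9.92 CPM (3.32 to 4.55), Npc2 at 47.7 CPM (24.8 to 29.7) and Abca1 at 190 CPM (111 to 131). Abca1 was low in cKO cage male replicate 2, at 84.5 CPM (132 to 162). Pmvk was high in cKO cage female replicate 3, at 7.9 CPM (3.97 to 4.96), and low in WT running female replicate 2, at 1.8 CPM (4.21 to 6.28). Msmo1 was high in cKO running female replicate 2, at 15.2 CPM (9.66 to 11.1). Outside the measured genes, eGFP reached 119 CPM in WT running male replicate 2, where the other WT libraries held 0 to 0.0219 CPM.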

How the results depend on the processing

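For running, where 2 of the 31 genes were called, the count was 4 with limma-voom. It was 1 with the Schwann cell or macrophage covariate, with no filter on low counts, with no sex term and with the replicate block. It was also 1 without both libraries of the less common project and without the 2 WT runners highest on the second component. Leaving out cKO cage female replicate 3 and WT running male replicate 2 together gave a count of 1 as well. It was 0 with the eGFP carriage or mitochondrial rRNA covariate, and 1 to 3 when 1 library was left out. For running in cKO (0 called) the count was 1 with DESeq2, 2 with limma-voom, 1 with no filter and 0 to 1 without 1 library. For sex (1 called) it was 4 with DESeq2, 5 with limma-voom, 2 with the eGFP covariate or no filter, and 1 to 3 without 1 library. It was 3 with the muscle covariate, and 3 without cKO cage female replicate 3 and WT running male replicate 2. The counts for running in WT, the 3 genotype comparisons and the interaction were 0 in all 43 alternatives each. Running values of 6 genes turned positive on FPKM with 0.1 and 1 added, namely Fdft1 (0.0202 and 0.0187), Sc5d (0.160 and 0.143), Ggps1 (0.108 and 0.0985), Insig2 (0.373 and 0.347), Hmgcs1 (0.0835 and 0.0764) and Pmvk (0.0227 and 0.0308). With the macrophage covariate Fdft1 was 0.0233, and with the muscle covariate Abca1 was -0.0122. Hmgcs1, Pmvk, Insig2, Cyp51, Msmo1, Scap and Mylip, whose main values were smaller than their SE, also changed sign under other alternatives. On FPKM 8 pairs covaried instead of 1, and r of Srebf2 with Hmgcs1 was 0.577. The cause was not tested. The check of the replicate numbers showed no pairing of samples but cannot exclude it. Of the 7 counts the replicate block was fitted for, it changed that for running alone. No value for sex comes from the block, which is set within sex.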
